A study of Mus musculus with 4 samples.

Results

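The genes described here were 10 members of the AP-1 and immediate early group: Fos, Fosb, Fosl1, Fosl2, Jun, Junb, Jund, Egr1, Ier2 and Ier3. They were chosen by symbol out of 51905 genes in the deposited tables, each symbol matched 1 row, and all 10 were among the 11928 genes tested, which averaged 10 counts or more over the CT26 pair of libraries and also over the MC38 pair. The libraries came from 2 mouse colorectal cancer lines, CT26 and MC38, each infected with lentivirus encoding a control hairpin that targets GFP (shGFP) or a hairpin that targets Aurka, the gene of the mitotic kinase Aurora-A (shmaurka-1). Cells were selected with puromycin and harvested 48 h after seeding, giving 1 library per condition: CT26 shGFP, CT26 shmaurka-1, MC38 shGFP and MC38 shmaurka-1. The genotype was given as WT throughout, all cells had been infected with a lentivirus and selected, and 1 hairpin against Aurka was sequenced. CT26 cells were grown in RPMI-1640 and MC38 cells in high glucose DMEM with HEPES and non-essential amino acids, both with fetal bovine serum, so line and medium cannot be told apart. There is no replicate library of any condition.

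Immediate early genes are transcribed within minutes of a growth factor, serum or stress signal, without new protein synthesis, and most of their transcripts decay quickly. Many of them answer to the ERK kinase pathway through serum response factor and its ETS-family cofactors. AP-1 is a dimer of basic leucine zipper proteins, formed by a Fos family member with a Jun family member or by a pair of Jun proteins, and its makeup differs between cell types and between resting and stimulated cells. Egr1 is a zinc finger transcription factor of the same early wave, and Ier2 and Ier3 are small immediate early proteins. In colorectal and other epithelial tumors the AP-1 gene Fosl1, which encodes FRA-1, is known for its link to invasion.

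Promoter windows are given for Fos, Fosb and Junb, members with lower values in both shmaurka-1 libraries than in their controls, and for Ier3, whose values went opposite ways in the 2 lines. Each window holds 250 bases before and 50 bases from the RefSeq start of the gene on build GRCm38.p6, read 5′ to 3′ on the strand of the gene, and capitals mark every match to the motifs named after them.
Fos, chr12:85473640-85473939, plus strand: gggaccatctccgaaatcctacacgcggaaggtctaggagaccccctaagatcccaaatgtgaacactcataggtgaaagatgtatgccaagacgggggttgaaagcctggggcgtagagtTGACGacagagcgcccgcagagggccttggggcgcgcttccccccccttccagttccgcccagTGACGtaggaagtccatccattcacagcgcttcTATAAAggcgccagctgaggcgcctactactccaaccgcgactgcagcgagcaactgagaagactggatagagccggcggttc
Fosb, chr7:19309996-19310295, minus strand: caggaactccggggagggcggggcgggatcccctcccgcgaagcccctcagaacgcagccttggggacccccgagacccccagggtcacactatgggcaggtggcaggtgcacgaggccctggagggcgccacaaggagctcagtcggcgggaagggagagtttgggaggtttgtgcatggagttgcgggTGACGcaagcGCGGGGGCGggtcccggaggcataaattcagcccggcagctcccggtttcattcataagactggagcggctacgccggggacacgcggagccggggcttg
Junb, chr8:84978699-84978998, minus strand: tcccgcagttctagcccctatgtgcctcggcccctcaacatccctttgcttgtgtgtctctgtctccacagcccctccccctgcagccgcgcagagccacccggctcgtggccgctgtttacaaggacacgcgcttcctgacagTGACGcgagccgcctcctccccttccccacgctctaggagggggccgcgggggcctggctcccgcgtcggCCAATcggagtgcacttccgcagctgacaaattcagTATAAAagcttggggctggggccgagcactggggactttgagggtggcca
Ier3, chr17:35821463-35821762, plus strand: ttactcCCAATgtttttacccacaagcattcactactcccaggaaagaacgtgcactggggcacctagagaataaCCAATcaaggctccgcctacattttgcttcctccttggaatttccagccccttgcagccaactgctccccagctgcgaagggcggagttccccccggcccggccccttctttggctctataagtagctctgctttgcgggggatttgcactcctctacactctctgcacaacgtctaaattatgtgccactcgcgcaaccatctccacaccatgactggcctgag
The motifs searched were the TATA box (TATAAA, on the strand of the gene only) and, on both strands, the cyclic AMP response element (TGACGTCA), its core (TGACG), the AP-1 site (TGANTCA), the EGR site (GCGNGGGCG), the CCAAT box (CCAAT) and the CArG box of serum response factor. The core overlaps the full cyclic AMP response element by construction. Windows of 7 members were searched (Fos, Fosb, Fosl2, Jun, Junb, Jund and Ier3). The Jund window (70697489 to 70697788) ends before the locus given to Jund in the files, and the Fosl2 window (32136222 to 32136521) lies inside the Fosl2 locus, so neither sits at the start of the counted gene. Fos held TGACG at 129 and at 66 bases before the start, Fosb at 60 bases and Junb at 106 bases before it, and 20.8% of all 32841 windows of this length held it. Fosb also held an EGR site 50 bases before its start, as did Fosl2 at 79 bases, against 5.55% of windows. Fos had a TATA box 33 bases before its start and Junb had one at base 1 of the RefSeq start, against 8.32% of windows. On the minus strand, this RefSeq start of Junb lies before the locus given to Junb in the files, which ends at 84978718. Ier3 had CCAAT at 244 and 175 bases before its start, and Jun and Junb had it at 65 and 36 bases, against 37.4% of windows. The letters of the full cyclic AMP response element (1.79% of windows), the AP-1 site (7.81%) and the CArG box (1.63%) were not in any of the 7 windows. The windows reach only 250 bases before the start, so the search cannot show whether a gene holds such a site further upstream. A match describes the letters only.

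The libraries held between 22207769 and 23752267 fragments, so they were of nearly equal depth. Aurka, the targeted gene, had 5724 and 1093 fragments in the CT26 pair (shGFP first) and 2300 and 413 in the MC38 pair, which matches the labels. The labels call CT26 a fibroblast and MC38 an epithelial cell type. Of 12 epithelial markers, 7 to 8 had at most 3 fragments in each library, and Epcam (0, 1, 0 and 1 fragments in the order of libraries given above) and Cdh1 (1, 2, 6 and 4) were at or near 0 in both lines, so these defining epithelial markers are absent or nearly so under either label. The rest of the list was mixed. Krt18 (1516, 1485, 12 and 14 fragments) and Krt20 (434, 205, 2 and 0) were present mainly in CT26, while Esrp1 (0, 0, 46 and 27) and Vil1 (0, 0, 38 and 29), at loci shared with other genes, were counted in MC38 alone. Of 10 fibroblast markers 9 passed the filter, and their summed level was 525 and 548 FPKM in the CT26 libraries and 346 and 295 in those of MC38, most of it Vim. The fibroblast markers had a median log2 knockdown value of -0.34 in CT26 and -0.08 in MC38, with 0 of 9 called by edgeR or DESeq2 and 4 at an unadjusted p under 0.05 by edgeR (12.3% of all genes tested). Leukocyte markers summed to between 1.56 and 4.41 FPKM and endothelial markers to between 0.466 and 1.66. The 2 endothelial markers tested, Pecam1 and Cdh5, stood at -1.15 and -1.06 (log2) in the MC38 knockdown, Cdh5 with 173 and 81 fragments, and at 0.01 and 0.17 in that of CT26. The 2 leukocyte markers tested, Lyz2 and Csf1r, stood at -0.47 and -0.65 in MC38 and at -0.13 and 0.60 in CT26, while Cd3e had 0 fragments in every library and Ptprc 0 to 3. The part of any of these markers in the results on the members was not tested. FPKM is a fragment number corrected for the length of the transcript and the depth of the library.

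Both CT26 libraries were above both MC38 libraries in 9 of the 10 genes, and Jund was the exception, with both CT26 libraries below. Egr1, Fosl1, Fosb, Junb and Fosl2 were more than 4-fold higher in CT26 under both hairpins. That bound of 4-fold was set after the values were seen, and 4.18% of all genes tested passed it, while 5.47% were as far lower in CT26 and 0 members were. Both CT26 libraries were above both of MC38 in 42.2% of the genes tested and below in 42.3%. In bulk libraries, fewer cells that transcribe a gene and less RNA per cell cannot be told apart.

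**Figure D1:**
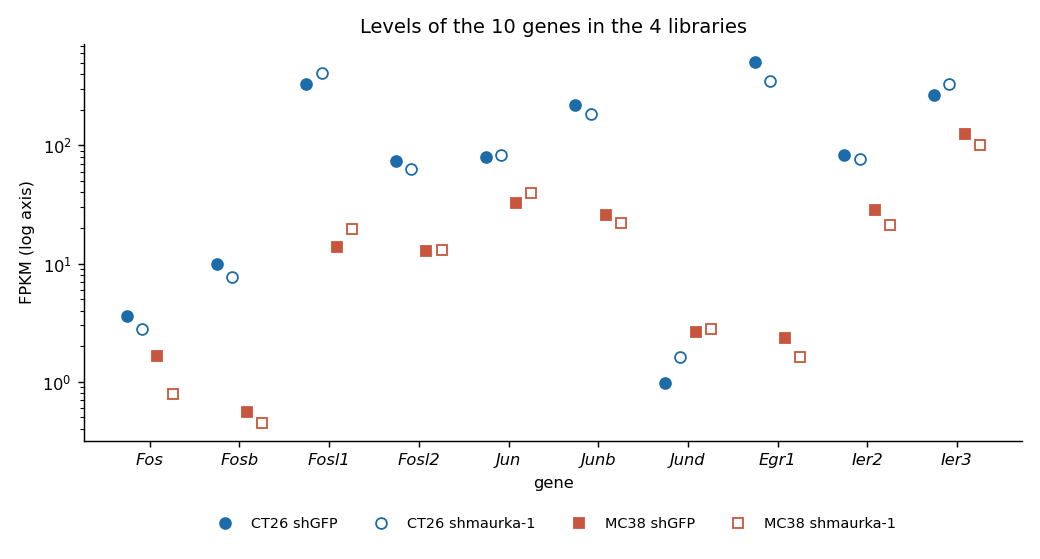
Level of each of the 10 genes in FPKM (vertical log axis) in each library; blue circles are CT26, red squares are MC38, filled symbols shGFP and open symbols shmaurka-1, 1 library per symbol. The CT26 symbols lie above those of MC38 for every gene except Jund, and Egr1 spans from 1.62 to 507 FPKM.

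Egr1 (chromosome 18, 34859823 to 34864984 in GRCm38) had 39097 fragments in CT26 shGFP, 23034 in CT26 shmaurka-1, 207 in MC38 shGFP and 139 in MC38 shmaurka-1. The CT26 libraries held far more of this transcript than those of MC38, with no overlap. CT26 over MC38 was 222-fold between the shGFP libraries and 207-fold between the shmaurka-1 libraries, log2 fold changes of 7.79 (95% counting interval 7.60 to 8.0) and 7.69 (7.46 to 7.95). Ordered from high to low by the smaller of the signed line differences, so that genes lower in CT26 come last, Egr1 ranked 4 among the 11928 genes tested. Genes averaging under 10 counts in either line were not tested, so those nearly absent in MC38 are missing from this order and from the 4-fold shares above. By level Egr1 was the first of the 10 genes in CT26 shGFP, at 507 FPKM, and the eighth in both MC38 libraries, at 2.33 and 1.62 FPKM.

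Among the Fos family, Fosl1 (chromosome 19, 5447703 to 5455945) had the largest line difference. It had 18141 fragments in CT26 shGFP, 19257 in CT26 shmaurka-1, 892 in MC38 shGFP and 1243 in MC38 shmaurka-1. CT26 was 24.0-fold above MC38 with shGFP (log2 4.58, 95% counting interval 4.49 to 4.68) and 19.5-fold with shmaurka-1 (log2 4.28, 4.20 to 4.37). Fosb (chromosome 7, 19302696 to 19310051), a close relative of Fos, was a low transcript with 856, 570, 61 and 49 fragments in the same order of libraries. It was 16.3-fold and 14.3-fold higher in CT26 under shGFP and shmaurka-1. Fosl2 (chromosome 5, 32135801 to 32157842), which encodes FRA-2, had 10721, 8149, 2218 and 2246 fragments and was 5.70-fold and 4.56-fold higher in CT26. Fos itself (chromosome 12, 85473890 to 85477273) was scarce everywhere, with 163 and 125 fragments in the CT26 pair against 95 and 46 in the MC38 pair. Its line difference was 2.01-fold with shGFP and 3.36-fold with shmaurka-1.

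In the Jun family, the line difference differed from gene to gene in size and in direction. Junb (chromosome 8, 84976910 to 84978718) had 12507 fragments in CT26 shGFP, 8724 in CT26 shmaurka-1, 1705 in MC38 shGFP and 1463 in MC38 shmaurka-1. CT26 was 8.65-fold higher with shGFP and 7.49-fold higher with shmaurka-1. Jun (chromosome 4, a locus from 95049034 to 95167318 that the files share among 5 genes, the antisense gene Junos among them) had 6271, 5642, 3055 and 3699 fragments. Its line difference was smaller, 2.42-fold and 1.92-fold. Jund (chromosome 8, 70698949 to 70700616) had only 44, 60, 139 and 147 fragments, and it was the single member lower in CT26, with log2 fold changes of -1.40 (95% counting interval -1.94 to -0.92) and -0.95 (-1.42 to -0.52). The files place Gm11175, which had 0 counts, at the same locus, and whether counting used the strand is not given in the sources used here, so the values of Jun and Jund are uncertain.

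The 2 Ier genes were both higher in CT26. Ier3 (chromosome 17, 35821684 to 35822923), a stress-inducible regulator of cell survival, had 5240 and 5743 fragments in the CT26 libraries and 2924 and 2319 in those of MC38. It was 2.11-fold higher in CT26 with shGFP and 3.11-fold higher with shmaurka-1. Ier2 (chromosome 8, 84661331 to 84662852) had 3241, 2552, 1325 and 986 fragments and was 2.88-fold and 3.25-fold higher in CT26. Ier3 was the only member within the top 10% of tested genes by FPKM in all 4 libraries, at 266 and 331 FPKM in CT26 and 125 and 100.3 in MC38.

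**Figure D2:**
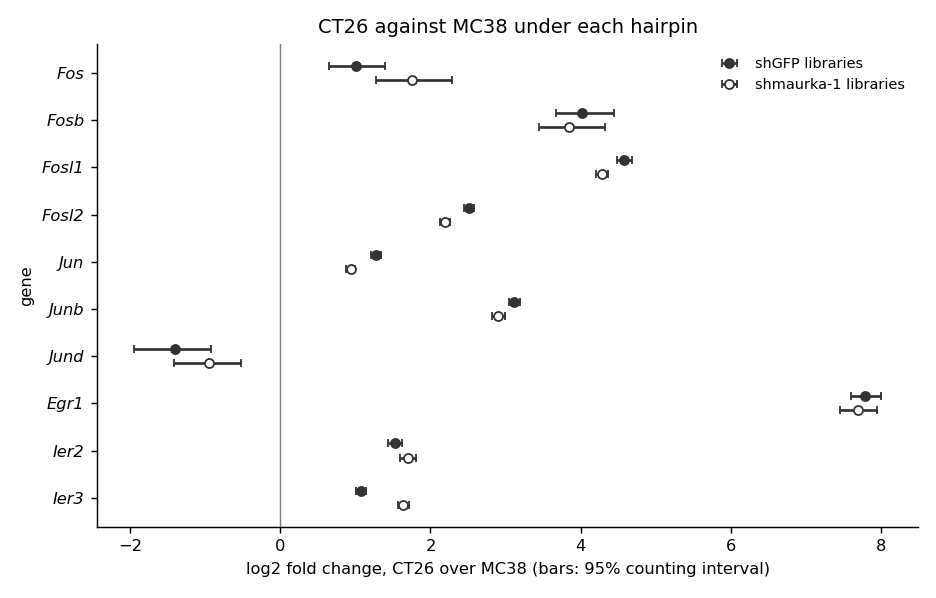
Log2 fold change of CT26 over MC38 for each gene, between the shGFP libraries (filled) and between the shmaurka-1 libraries (open); bars are 95% exact intervals of counting error between 2 libraries. Egr1 stands at 7.79 and 7.69, and Jund alone lies below 0.

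All 10 genes were called different between the lines by edgeR's quasi-likelihood test, blocked on hairpin, 9 higher in CT26 and 1 lower, with Benjamini-Hochberg adjusted p of 1.04e-05 for Jund, 6.23e-08 for Fos and smaller values for the other 8. The same test called 73.3% of all genes tested, 36.6% higher in CT26 and 36.7% lower, so a call by itself says little here. DESeq2 called all 10 as well, beside 62.4% of all genes tested. The 2 libraries of a line differ in their hairpin and are not cultures of the same kind, and p-values measure only the spread between these 4 libraries. The median log2 difference of the 10 genes was 2.02 with shGFP and 1.97 with shmaurka-1, beside 0.00 and -0.01 for all genes tested.

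The makeup of the AP-1 transcripts differed between the lines as well. FPKM is per length, so the 7 Fos and Jun genes can be added. Their sum was 718 FPKM in CT26 shGFP, 751 in CT26 shmaurka-1, 89.8 in MC38 shGFP and 98.5 in MC38 shmaurka-1. The Fos family held 58.1% and 64.3% of that sum in the CT26 libraries and 32.2% and 34.3% in those of MC38. Fosl1 alone was 46.0% and 54.5% of the sum in CT26 against 15.5% and 19.7% in MC38. Jun was the largest part in MC38, at 36.3% and 40.4%, while it was 11.1% and 11% in CT26. Within the Jun family Junb led in CT26, with 73.2% and 68.5% of the family's FPKM, and Jun led in MC38, with 53.5% and 61.6%. Fos was between 0.375% and 1.85% of the sum in every library, and Fosb between 0.456% and 1.38%. In all 4 libraries the Fos family was mostly Fosl1 and Fosl2, which lack the strong activation domain of Fos. Each share rests on 1 library, and no test was made of it. The sums include Jun and Jund, whose values are uncertain for the reasons given above, so every share and the order within the Jun family depend on them.

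**Figure D3:**
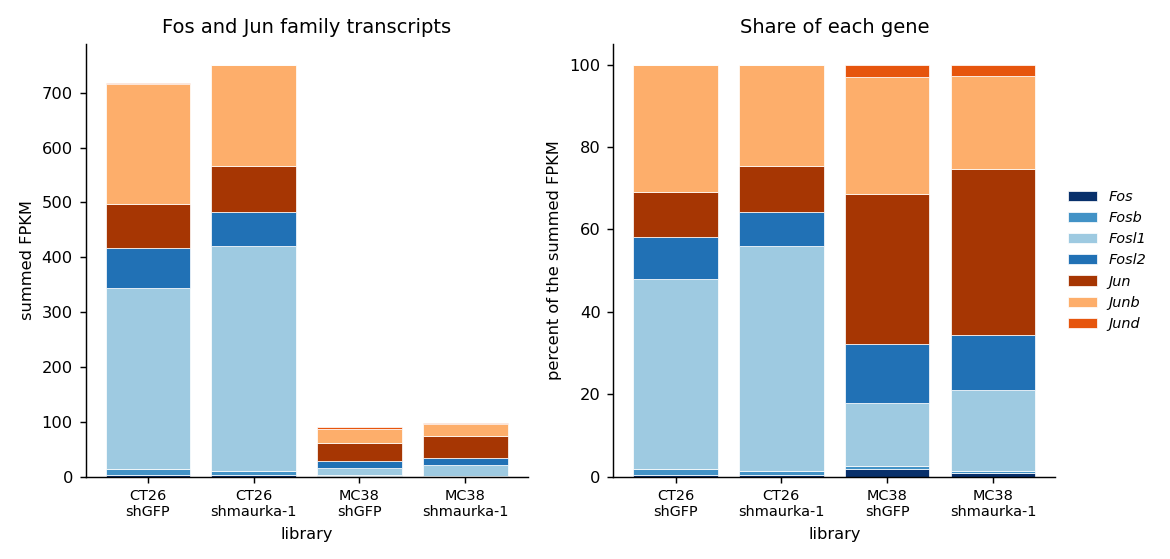
Left, summed FPKM of the 7 Fos and Jun genes in each library; right, the same as percent of the sum, with 1 bar per library and colors for genes (blues Fos family, oranges Jun family). The CT26 bars reach 718 and 751 FPKM against 89.8 and 98.5 for MC38, and Fosl1 is the largest part of the CT26 bars.

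Within each line, the knockdown libraries differed from their controls by less than the lines differed, except for Fos, whose 2.0-fold lower value in MC38 was about as large as its line difference with shGFP. Egr1 fell and Fosl1 rose in the edgeR test common to both lines, which called 1.12% of all genes tested lower and 1.67% higher. An unadjusted p under 0.05 was reached by 6 of the 10, beside 12.3% of all genes tested. The thresholds of the study were 1.5-fold and 0.6-fold. In CT26 0 of the 10 genes passed either, beside 5.77% of all genes tested, 3.2% above the upper and 2.57% below the lower. In MC38 1 gene, Fos, was below 0.6-fold, beside 1.03% of all genes tested, and 0 were above 1.5-fold, beside 2.47%, which makes 1 member past either threshold beside 3.5% of all genes. Both counts depend on the measure and the threshold. By the ratio of the deposited FPKM, Jund in CT26 was at 1.66-fold, while Fos in MC38 stayed below 0.6-fold, at 0.479. With log2(FPKM + 1), Fos in MC38 was at -0.57 on the log2 scale and no longer below 0.6-fold, while Jund in CT26 was at 0.41 and not above 1.5-fold. A lower threshold of 1/1.5 would also count Egr1 in CT26, at 0.641-fold. Of the 10 genes, 7 had lower values in CT26 shmaurka-1 than in its control and 3 higher, beside 50.8% and 49.2% of all genes tested. In MC38 6 had lower values and 4 higher, beside 50.1% and 49.9%. The members' median log2 value was -0.24 in either line, against -0.01 in CT26 and 0.00 in MC38 over all genes tested. Values were lower in both shmaurka-1 libraries for 5 of the 10 genes (Fos, Fosb, Junb, Egr1 and Ier2), beside 28.9% of all genes tested, and higher in both for 2 (Fosl1 and Jund), beside 28%.

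Egr1 had 0.64 of its control value in CT26 and 0.69 in MC38, log2 fold changes of -0.64 (95% counting interval -0.67 to -0.62) and -0.54 (-0.87 to -0.23). The mean of the lines was -0.59 ± 0.07 (SD, n = 2 lines), and both lines were lower. Blocked on line, the quasi-likelihood test of edgeR gave an adjusted p of 1.9e-06, and DESeq2's Wald test gave 0.0084. It was the only member called by both tools, beside 2.79% of all genes tested called by edgeR and 0.243% by DESeq2. Limma on log2(FPKM + 1) gave an adjusted p of 0.36 and called 1 gene in all.

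Fosl1 moved the other way, at a log2 of 0.21 in CT26 (95% counting interval 0.18 to 0.24) and of 0.51 in MC38 (0.38 to 0.63), or 1.15-fold and 1.42-fold. The mean was 0.36 ± 0.21 (SD, n = 2 lines), and edgeR's adjusted p was 0.015. DESeq2 did not call it (adjusted p = 0.52), nor did edgeR among genes averaging 50 counts or more (adjusted p = 0.12), so the call rests on the model and on the genes tested.

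Junb, Ier2, Fosb and Fos had lower values in both knockdown libraries and did not pass edgeR's threshold. Junb had log2 fold changes of -0.40 (95% counting interval -0.44 to -0.36) in CT26 and -0.19 (-0.29 to -0.09) in MC38, with an adjusted p of 0.057 by edgeR. Ier2 had -0.22 and -0.40 with an adjusted p of 0.10 by edgeR, and both of its counting intervals excluded 0. Fosb had -0.47 (-0.62 to -0.31) in CT26 and -0.28 in MC38, where its 61 and 49 fragments gave an interval of -0.86 to 0.28. Fos had -0.26 in CT26 (-0.61 to 0.08) and -1.0 in MC38 (-1.56 to -0.49), where it had 95 and 46 fragments, and its adjusted p was 0.25 by edgeR.

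The other members showed no common direction that the test could separate from the spread. Fosl2 had log2 fold changes of -0.28 (95% counting interval -0.32 to -0.23) in CT26 and 0.05 (-0.04 to 0.13) in MC38. Jun had -0.03 (-0.08 to 0.02) and 0.31 (0.24 to 0.38). Ier3 had 0.25 (0.20 to 0.31) and -0.30 (-0.38 to -0.23), so that its counting intervals lay on opposite sides of 0. Jund had 0.56 (-0.02 to 1.16) and 0.11 (-0.23 to 0.46) on few fragments. By edgeR the adjusted p was 0.71 for Fosl2, 0.65 for Jun, 0.98 for Ier3 and 0.74 for Jund.

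**Figure D4:**
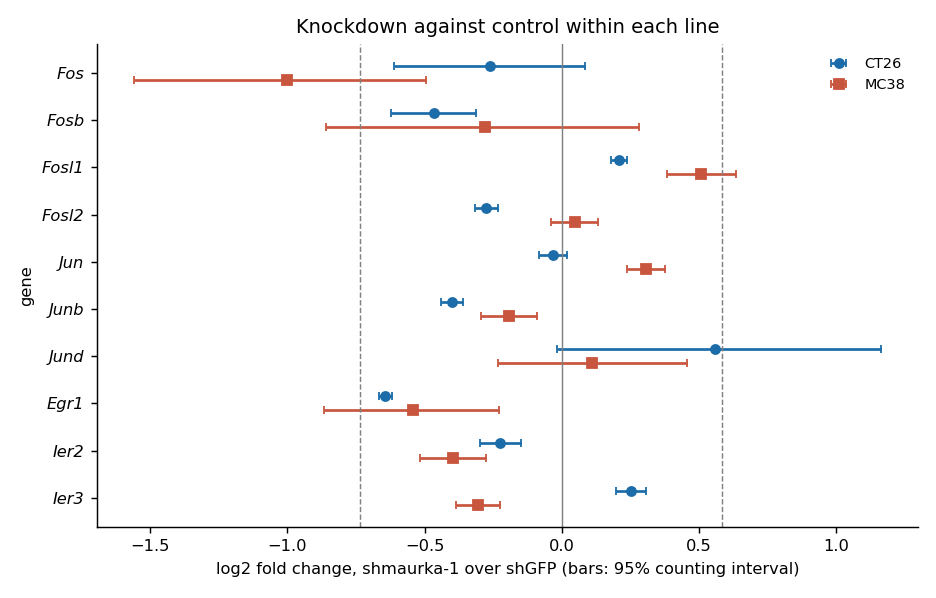
Log2 fold change of shmaurka-1 over shGFP for each gene in CT26 (blue circles) and MC38 (red squares); bars are 95% exact intervals of counting error between 2 libraries, and dashed lines mark 1.5-fold and 0.6-fold. In these TMM-scaled counts Fos in MC38, at -1.0, is the only point past a dashed line, and Ier3 has its 2 points on opposite sides of 0.

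The counting intervals say how well a pair of libraries is told apart and nothing about the spread between cultures. With 1 residual degree of freedom and infinite prior degrees of freedom, edgeR's spread for the members is the one estimated from all genes. An effect of the hairpin sequence other than on Aurka cannot be told apart from the knockdown.

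Other immediate early genes were mostly higher in CT26 as well. Of 24 listed genes 22 were tested, and edgeR called 18 higher in CT26 and 4 lower, beside 36.6% and 36.7% of all genes tested, with a median log2 difference of 2.01 between the shGFP libraries. Plk2, which encodes a kinase of the polo family, was the most abundant, at 589 and 609 FPKM in the CT26 libraries and 12.5 and 16.7 in those of MC38. Cyr61, a matricellular protein gene, had 110 and 120 FPKM in CT26 against 16 and 13.6 in MC38. Phlda1 had 107 and 126 FPKM against 4.77 and 2.88, and Rhob, a small GTPase gene, had 84.0 and 75.6 against 52.7 and 43.4. The common knockdown test of edgeR called 0 of the 22 genes, as did DESeq2, while 5 had an unadjusted p under 0.05 by edgeR (12.3% of all genes tested did), and their median log2 fold changes were -0.14 in CT26 and -0.08 in MC38. Egr2, the nearest relative of Egr1 in the list and named here after its values were seen, had 490 and 294 fragments in CT26 and 36 and 22 in MC38, log2 fold changes of -0.61 (95% counting interval -0.83 to -0.40) and -0.66 (-1.52 to 0.12) with an edgeR adjusted p of 0.088. In MC38 its deposited FPKM went the other way, from 0.443 to 0.543.

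The partners of AP-1 among the basic leucine zipper genes were divided. Of 12 listed, 10 were tested, and edgeR called 4 higher in CT26 and 2 lower, beside 36.6% and 36.7% of all genes tested. Maff, a small MAF gene, had 163 and 160 FPKM in CT26 and 2.74 and 2.18 in MC38. Mafk, at a locus shared by 4 genes, had 98.1 and 88.1 against 17.2 and 18.8, while Mafg and Atf2 had log2 line differences between -0.19 and 0.17. Atf3, a stress-induced partner named after its values were seen, was higher in MC38, with 562 and 682 fragments against 22 and 12 in CT26. None of the 10 was called by edgeR in the common knockdown test (0 by DESeq2, and 0 at an unadjusted p under 0.05 by edgeR).

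Genes that the ERK pathway induces, most of them feedback inhibitors and Etv4 and Etv5 transcription factors of the ETS family, had higher values in CT26 in 9 of the 9 tested of 10 listed, and edgeR called 8 of them, beside 36.6% of all genes tested. Dusp6, an ERK phosphatase gene, had 109 and 89.7 FPKM in the CT26 libraries and 7.97 and 5.68 in those of MC38. Spry4, a feedback inhibitor gene, had 136 and 148 against 3.11 and 2.23, and Etv4 47.9 and 44.2 against 17.2 and 13.1. In the common knockdown test edgeR called 2 of the 9 lower, beside 1.12% of all genes tested, and DESeq2 called 0. Dusp6 was at a log2 of -0.31 in CT26 and of -0.53 in MC38 (edgeR adjusted p = 0.015), and Dusp4 had -0.67 and -0.10 (edgeR adjusted p = 0.013). All 9 were lower in MC38 shmaurka-1 than in its control, with a median log2 fold change of -0.21, beside 50.1% of all genes tested, and 6 of the 9 were lower in CT26, with a median of -0.04, beside 50.8%.

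Genes known as AP-1 targets were higher in CT26 in 11 of the 12 tested of 15 listed by edgeR's test, beside 36.6% of all genes tested, with a median log2 difference of 3.55 between the shGFP libraries and 3.35 between the shmaurka-1 libraries. Plaur, the urokinase receptor gene, had 469 and 364 FPKM in CT26 and 26.7 and 23.8 in MC38. Timp1, at a locus the files share among 8 genes, had 514 and 412 against 35.9 and 36.1, and Hmga1 had 434 and 498 against 156 and 176. In the common knockdown test edgeR called 1 gene lower, beside 1.12% of all genes tested. It was Hbegf, which encodes a ligand of the EGF receptor, with log2 fold changes of -0.28 and -0.45 and an adjusted p of 0.044, and DESeq2 called 0. Over the 12 genes the median log2 knockdown value stood at -0.20 in CT26 and 0.05 in MC38.

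The upstream kinases and the cofactors of serum response factor differed between the lines in both directions. All 18 listed were tested, and edgeR called 10 higher in CT26 and 4 lower, beside 36.6% and 36.7% of all genes tested, with a median log2 line difference of 0.27 with shGFP and 0.47 with shmaurka-1. Mapk3, which encodes an ERK kinase, had 94.1 and 79.2 FPKM in CT26 against 58.2 and 51.3 in MC38, and Map2k1 had 52.1 and 54.5 against 40.6 and 36.6. EdgeR and DESeq2 each called 0 of the 18 in the common knockdown test, with 1 at an unadjusted p under 0.05 by edgeR, beside 12.3% of all genes tested. Of 6 heat shock genes, listed for stress in the handling of cells, 4 were tested. EdgeR called 0 higher in CT26 and 2 lower, beside 36.6% and 36.7% of all genes tested. The summed level of the 6 was 255 and 252 FPKM in CT26 and 575 and 538 in MC38. Most of that sum, and of its gap between the lines, was Hspa8, with 153 and 156 FPKM against 468 and 425. Hsph1 had 76.1 and 69.1 against 73.6 and 81.5, and Dnajb1 had 25.3 and 26.4 against 29.0 and 27.0. Neither tool called any of the 4 in the common knockdown test, and 0 had an unadjusted p under 0.05 by edgeR. The part of cell handling, medium or culture density in any of these differences was not tested.

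**Figure D5:**
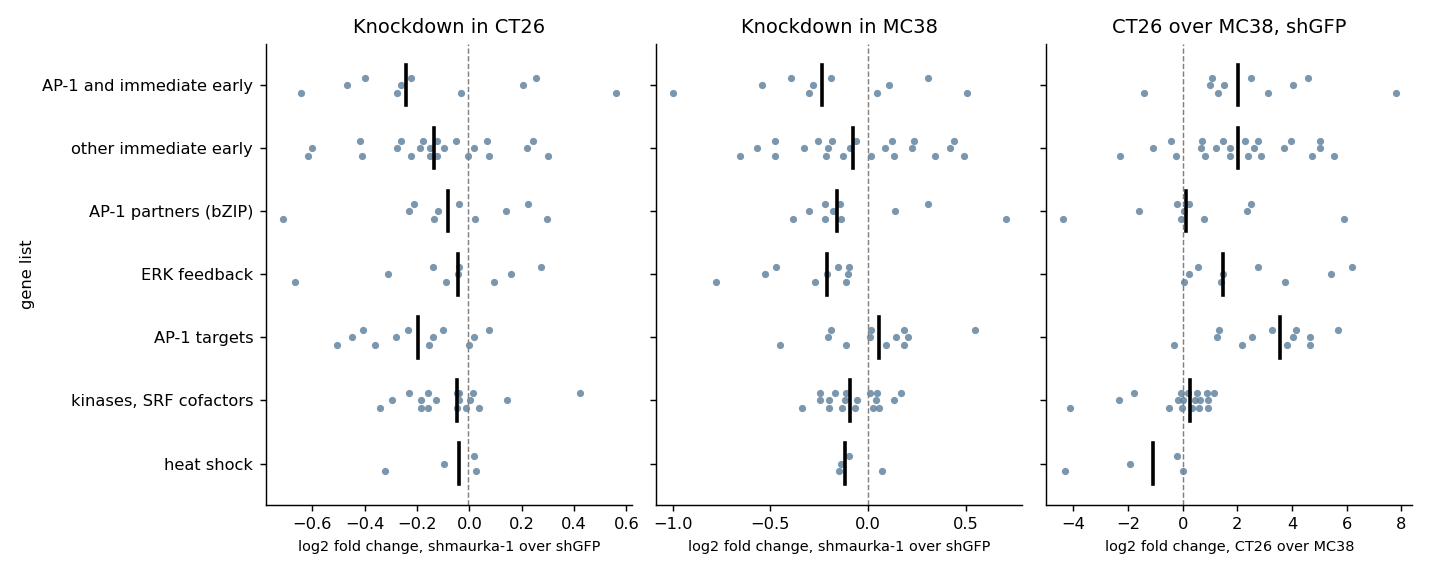
Log2 fold change of every tested gene (points) of the 10 genes and of 6 context lists, for the knockdown in CT26 (left), the knockdown in MC38 (middle) and CT26 over MC38 in the shGFP libraries (right); black bars are list medians and the dashed line is the median of all genes tested. The line medians are 2.02 for the 10 genes, 2.01 for other immediate early genes and 3.55 for AP-1 targets, against 0.27 for the upstream kinases and SRF cofactors.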

How the data were processed

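RNA-seq libraries of CT26 and MC38 cells were strand-specific (Agilent SureSelect), and 1 was sequenced for each of the 4 groups. The submitters' processing notes name Trimmomatic 0.36, HISAT2, Cufflinks 2.2.1 and Cuffdiff and the build GRCm39. The loci in the files are those of GRCm38, since 99.9% of 18205 genes overlapped the RefSeq gene of the same name there and 9.54% the GENCODE gene on GRCm39. The authors deposited estimated counts, scaled between libraries, and FPKM values for each gene. Dividing by the smallest step of a library (0.885 to 1.17) gave whole fragments, within 0.05, for 97.0% to 97.6% of its nonzero values. Those fragments were used for the fragment numbers and for exact conditional binomial intervals (95%).

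Fold changes are ratios of TMM-scaled deposited counts with 1 count added to each library. Estimated counts were rounded for edgeR 4.0.16 (R 4.3.3), whose quasi-likelihood test used line and hairpin in 1 model of the 4 libraries, with Benjamini-Hochberg adjustment over 11928 genes. DESeq2 1.42.0 and limma 3.58.1 (on log2 FPKM plus 1) were alternatives. Python 3.11.15, scipy 1.17.1, numpy 2.4.6 and pandas 2.3.3 were used otherwise. The named genes were the 10 members and, from each context list, up to 4 with the highest mean FPKM or called in the common test. Egr2, Atf3 and the cell type markers were named outside this rule, after their values were seen. One gene that this rule names is not reported here. The members, lists and alternatives were chosen with earlier results of these data known.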

Additional observations from a re-analysis of the deposited data

Results flagged for a closer look

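In 3 genes the single library of one line lay above its control and that of the other line below it. With 1 library per condition, whether the lines differ in this was not tested. Ier3 had a log2 knockdown change of 0.25 in CT26 and -0.30 in MC38, a difference of 0.56 (95% interval 0.46 to 0.65 from counting error only, normal approximation on 4 fragment counts). Jun had -0.032 in CT26 and 0.31 in MC38, a difference of -0.34 (-0.42 to -0.25). By the deposited FPKM with a pseudocount of 1, Jun was at 0.06 in CT26, so that its values no longer lay on opposite sides. Fosl2 had -0.28 in CT26 and 0.048 in MC38, a difference of -0.32 (-0.42 to -0.23).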

How the results depend on the processing

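The fold changes of the 10 genes within a line stayed within their counting interval in 105 of 120 alternative values. The other 15 were all in CT26, 14 of them with the deposited FPKM and 1 with total-count scaling (Egr1, -0.67). All 79 alternative values of the members in the line test, total-count scaling included, kept their direction and their call. Total-count scaling shifted the median of all genes by about -0.3 in the line comparison (-0.28 with shGFP and -0.30 with shmaurka-1) and made 35.3% of its calls higher in CT26, against 49.9%. In the common knockdown test 72 of 79 alternative values stayed on their side of the threshold. Fosl1 lost its call in 4 alternatives and Egr1 in 2 of the same 4, limma and the model without the replicate block, and Junb gained one with total-count scaling (adjusted p = 0.035 by edgeR).

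Genes above 1.5-fold and below 0.6-fold numbered 382 and 306 in CT26 and 295 and 123 in MC38. Taking log2(FPKM + 1) gave 203 and 77 in CT26 and 127 and 27 in MC38. Genes averaging 50 counts or more gave 177 and 80, then 93 and 31. Without a filter they were 2595 and 2981, and 3076 and 2841. A lower threshold of 1/1.5 gave 512 below it in CT26 and 241 in MC38. The common test called 199 genes higher and 134 lower, against 63 and 38 among genes averaging 50 counts or more, 17 and 12 with DESeq2, 0 and 1 with limma (1083 genes at an unadjusted p under 0.05), and 0 and 0 in the model with no replicate block (13 genes at an unadjusted p under 0.05). Under total-count scaling 49.1% of its calls were higher, against 59.8%. The stricter filter, no filter and the lower threshold change which genes are counted by construction, and for the others the cause was not tested. Each line gives 1 pair, so blocking on line is the paired fit, and leaving out a library leaves no second pair.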
